A study of Mus musculus with 54 samples.

Results

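The response to lipopolysaccharide (LPS) was compared between subdural CNS-associated macrophages (sdCAMs) and microglia (MG) of the same Ccr2-/- mice. The comparison was the difference of differences per gene, that is, the LPS change in sdCAMs minus the LPS change in MG. Its 12 libraries, of 54 in the series, came from Ccr2-/- mice that had not been depleted of macrophages and were chosen by the mouse and cell population in the library names. They formed 4 groups of 3 libraries, and each of the 6 mice gave 1 sdCAM and 1 MG library. The LPS mice (V1m, V2m and V4f) had received the vehicle control (CTL) by gavage and then LPS, whereas the untreated mice (1m, 3m and 5f) had received PBS and no vehicle, so that the LPS change also contains any effect of the vehicle and these cannot be told apart. Per the labels, LPS was injected 8 weeks after the end of the gavage and the cells were taken 12 h later. All mice were Ccr2-/-, homozygous for a germline targeted allele of the chemokine receptor through which monocytes leave the bone marrow, and such mice have few circulating monocytes. The cells were sorted from perfused whole brain without choroid plexus, sdCAMs as CD206+ and MG as CD206- macrophages.

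LPS, a component of the outer membrane of Gram-negative bacteria, is bound by Cd14 and the Tlr4 complex, which act through NF-κB and through interferon to switch on cytokines, chemokines and, later, the inhibitors that end the response. MG lie in the brain parenchyma behind the blood-brain barrier, whereas sdCAMs lie in the leptomeninges and along vessels, next to blood and cerebrospinal fluid. Both are long-lived macrophages that depend on Csf1r. They differ in their resting genes, so that the same gene can start from very different levels in each.

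Libraries held 7887891 to 11330781 counts, and 13584 to 14897 genes were detected per library. Of 12305 genes tested, levels are given as CPM (library-size-scaled counts with TMM factors), and fold changes as log2 values fitted by edgeR with their standard error (SE). A gene was called when the edgeR quasi-likelihood test gave a Benjamini-Hochberg adjusted p under 0.05 and the log2 value was over 1 in size. A positive interaction means that the LPS change was higher in sdCAMs than in MG, and a negative one that it was lower (larger and smaller in the plots). The common biological coefficient of variation was 0.332.

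Ccr2 itself was at 3.02, 2.46 and 5.59 plain CPM in untreated Ccr2-/- sdCAMs and at 43, 16.8 and 34.2 in those of wild-type (WT) mice, and the groups did not overlap. In sdCAMs after LPS, Ccr2 lay at 5.32, 2.92 and 3.17 CPM in Ccr2-/- mice and at 0.26, 0 and 0.152 in WT mice. In untreated MG the means were 6.05 ± 1 CPM in Ccr2-/- and 7.37 ± 3.37 in WT mice (SD, n = 3 each). The exact two-sided permutation test gave p = 0.1 for each sdCAM comparison, the smallest value that 3 against 3 libraries allow (0.2 after adjustment over 4 comparisons). Counts per gene do not show which part of the allele the reads came from, so that Ccr2 checked the labels only in part.

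The sorted populations carried their own markers. Mrc1, which encodes the CD206 used in the sort, lay between 6970 and 7950 CPM in untreated sdCAMs and between 6.45 and 13.4 in untreated MG. The other defining sdCAM markers Lyve1, Pf4 and Cd163 were at most 3.8 CPM in any MG library and at least 153 in any sdCAM library. MG markers were less clearly divided. P2ry12, the ADP receptor of homeostatic microglia, reached 8.54 to 12.2% of the level of the same mouse's MG in untreated sdCAMs and 9.34 to 12.7% after LPS, Tmem119 4.7 to 7.59% and 6.17 to 11.8%, and Sall1, the microglial lineage factor, 2.89 to 5.73% and 1.76 to 12.9%. The ranges overlapped between conditions for 9 of 12 MG markers, these included. For the other 3 they did not overlap and were lower after LPS, with Cx3cr1 at 25.8 to 33.7% before and 5.69 to 7.95% after, P2ry13 at 29.5 to 34% and 13.1 to 16.8%, and Fcrl2 at 100 to 111% and 11.8 to 18.1%. Summed over 12 MG markers, levels went from between 12600 and 15200 to between 2020 and 2620 CPM in sdCAMs and from between 67500 and 68600 to between 21900 and 24400 in MG, and the 12 border macrophage markers summed to at most 347 CPM in any MG library. The part of MG transcripts in the sdCAM results was not tested. A difference in cell number of a type and a difference in RNA per cell cannot be told apart in such bulk samples.

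Markers of other cells were mostly low. Of 11 neutrophil markers, Ly6g was at 0 in all 12 libraries and Retnlg had 1 count, but S100a8 lay at 64.7 to 101 CPM in sdCAMs after LPS against 0.966 to 2.47 before, and the summed list moved from 217 to 262 CPM to 435 to 473, most of it Csf3r. In the untreated MG library of mouse 1m, S100a8, S100a9 and Ngp stood at 34.8, 18.6 and 19.4 CPM while they were at 0 in the other 2. Of the monocyte markers, Hp is described with the acute phase genes, Ly6c2 was at most 2.96 CPM in any sdCAM library, and Chil3 and Cd177 were at 0 in all of them. Of the dendritic cell markers, Cd209a fell from between 420 and 636 CPM to between 66.3 and 162 in sdCAMs, and was at most 0.0906 CPM in MG. Among astrocyte markers Gja1 went from between 12.7 and 37.4 to between 122 and 160 CPM in sdCAMs. The sdCAM ranges of Aqp4, Gfap, Slc1a2 and Aldoc overlapped between conditions. Oligodendrocyte markers summed to between 173 and 643 CPM in untreated sdCAMs and between 172 and 429 after LPS. In MG they summed to between 113 and 137 CPM before and between 64.9 and 146 after LPS. The part of these cells in the results was not tested.

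LPS changed 3191 genes in sdCAMs (25.9% of those tested), of which 1449 (11.8%) rose and 1742 (14.2%) fell. In MG, 1991 genes changed (16.2%), 1085 upwards (8.82%) and 906 downwards (7.36%). Of these, 1279 were called in both cell types, 40.1% of the sdCAM calls and 64.2% of the MG calls, and 1240 of them moved in the same direction. The interaction was called for 1151 genes (9.35%). The LPS change was higher in sdCAMs for 466 (3.79%) and lower in sdCAMs for 685 (5.57%).

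**Figure D1:**
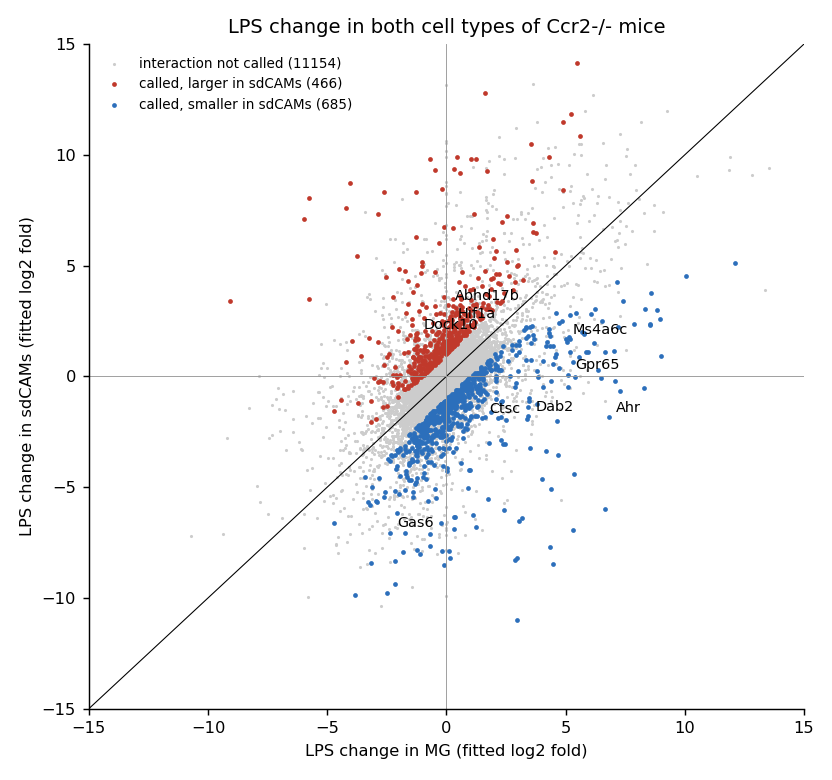
Fitted log2 LPS change in MG (horizontal) and in sdCAMs (vertical) for each of 12305 genes tested, with 3 libraries per group. Red and blue points are the 466 genes whose change was higher and the 685 whose change was lower in sdCAMs, which lie above and below the diagonal of equal change, and grey points are genes without a called interaction.

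The called interactions were of several kinds. Among the 466 genes with a higher change in sdCAMs, 235 rose in sdCAMs and were not called in MG, 68 rose in both cell types, 74 fell in MG and were not called in sdCAMs, 6 fell in both, 19 rose in sdCAMs and fell in MG, and 64 were called in neither cell type taken alone. Among the 685 with a lower change, 320 fell in sdCAMs and were not called in MG, 93 fell in both, 113 rose in MG and were not called in sdCAMs, 60 rose in both, 20 fell in sdCAMs and rose in MG, and 79 were called in neither. The largest kinds were therefore genes that moved in sdCAMs and passed no call in MG.

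Where the cell types stood before LPS differed between these kinds. Of the 685 genes with a lower change in sdCAMs, 79.7% had a higher mean level in sdCAMs than in MG before LPS and 25.5% after it. For the 466 with a higher change, 28.1% were higher in sdCAMs before and 86.5% after. Over all genes tested these shares were 50% and 47.5%. The 60 genes that rose in both cell types but less in sdCAMs stood apart from this, since 58 were higher in sdCAMs at rest and 42 were still higher there after LPS. In 54 of these 60 the gap between the cell types narrowed, from a median of 3.57 to 1.77 (absolute log2 difference of group means with a pseudocount of 0.5 CPM). These shares come from the values that the calls used and were not tested.

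**Figure D2:**
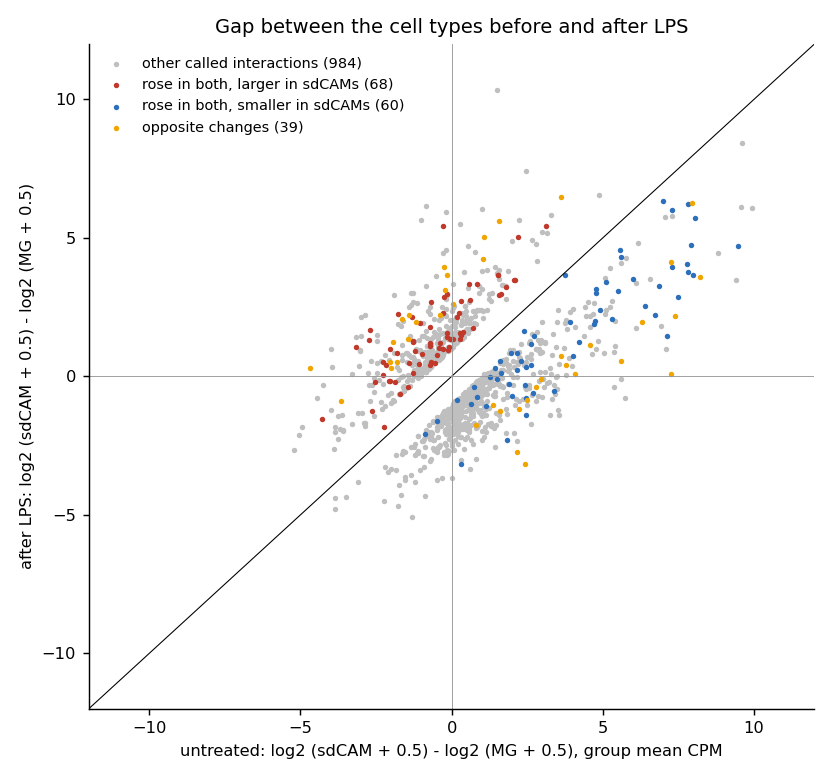
Gap between sdCAMs and MG, as log2 of the ratio of group mean CPM with 0.5 added to each, before LPS (horizontal) and after LPS (vertical) for the 1151 genes with a called interaction. Blue points, the 60 genes that rose in both cell types with a lower fold in sdCAMs, lie mostly in the upper right quadrant below the diagonal, where sdCAMs stayed higher but by less.

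The genes of smallest p among the higher changes were Abhd17b, Hif1a, Dock10, Cstb, Lpxn, Sgms1, Hcls1 and Slc11a1. Abhd17b, a hydrolase that removes palmitate from proteins, was at 35.99, 42.78 and 39.99 CPM in untreated sdCAMs and at 316.4, 400.1 and 376.4 after LPS. In MG it was at 40.11, 48.67 and 44.19 CPM before and at 47.07, 42.44 and 50.04 after LPS. The sdCAMs after LPS thus stood alone, and the other 3 groups lay in one range, with an interaction of 3.13 (SE 0.193, adjusted p = 1.18e-07).

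Cstb, which encodes the cathepsin inhibitor cystatin B, had the same shape. It went from 153.4, 160 and 134.5 to 940.1, 981.4 and 1022 CPM in sdCAMs, and from 65.24, 50.58 and 48.41 to 64.94, 57.75 and 66.84 in MG. Its MG groups overlapped and its sdCAM groups were far apart (interaction 2.51, SE 0.173, adjusted p = 2.55e-07). Hcls1, an actin-binding protein of blood cells, and Slc11a1, the metal transporter of the phagosome, rose in sdCAMs by 2.10 and 1.87 (log2) and had values of -0.06 and 0.03 in MG.

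Dock10, an activator of small GTPases, moved in opposite directions. It rose from 98.77, 90.98 and 116.6 to 479.2, 335.2 and 338.9 CPM in sdCAMs and fell from 339.8, 440.7 and 399.9 to 157.8, 166 and 168.9 CPM in MG. The cell types thus exchanged their order (interaction 3.17, SE 0.214, adjusted p = 2.17e-07). Lpxn, a focal adhesion adaptor, and Sgms1, a sphingomyelin synthase, rose in sdCAMs by 1.43 and 2.42 (log2), while their MG values were -0.69 and -0.57 and lay inside the fold limit.

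**Figure D3:**
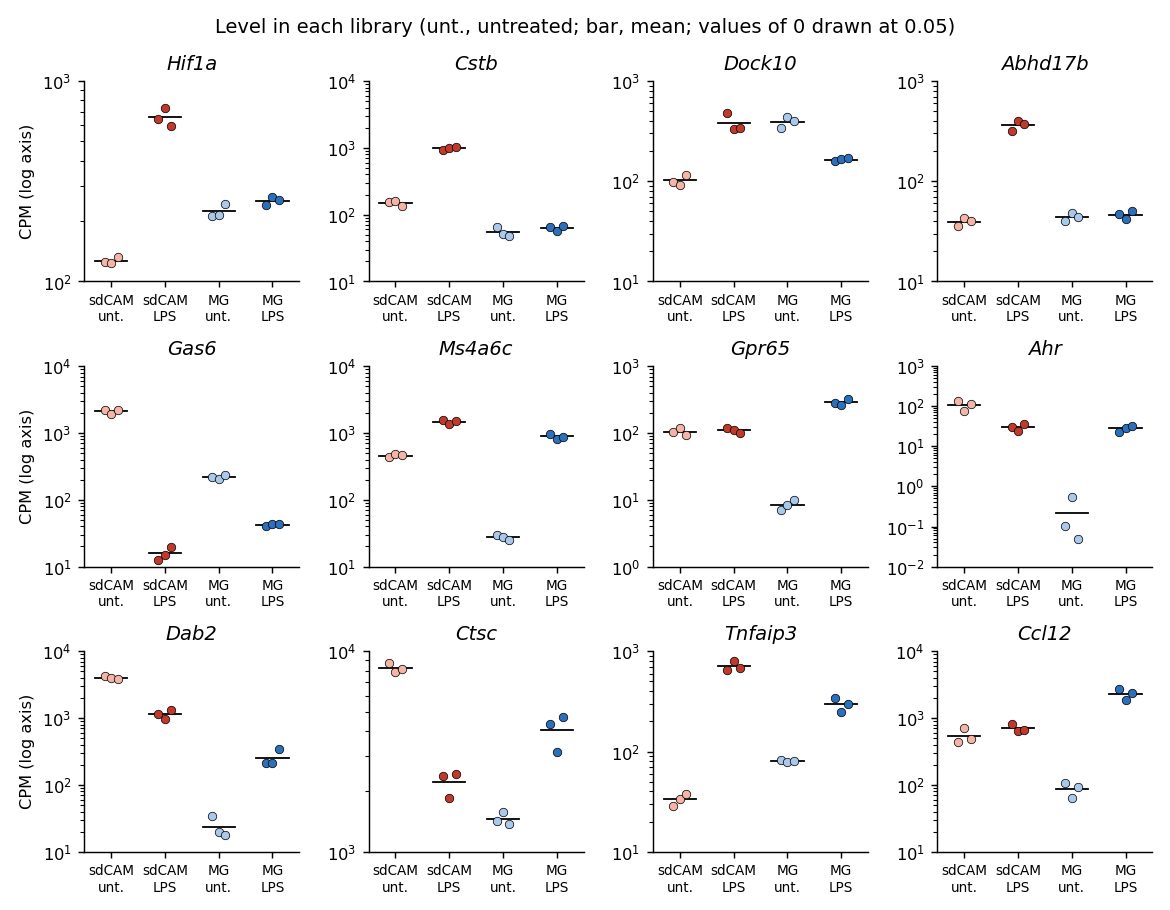
CPM (log axes that differ between panels, values of 0 drawn at 0.05) of 12 genes in each of the 12 libraries, 3 per group, with the group mean as a bar. In the upper row the sdCAMs after LPS stand above untreated sdCAMs while MG stay level or fall, and in the panels of Gpr65, Ahr, Dab2, Ctsc and Ccl12 the rise is in MG, with sdCAMs level or lower after LPS.

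The genes of smallest p among the lower changes were Gas6, Ms4a6c, Gatm, Gpr65, Fcgrt, Hgsnat, Stab1 and Fcrl2. Gas6, the bridging ligand through which Axl and Mertk recognise dying cells, fell from 2208, 1914 and 2174 CPM to 12.65, 15.04 and 19.69 in sdCAMs. In MG it fell from 217.1, 206.5 and 234.8 to 40.1, 43.17 and 44.07 CPM. The sdCAMs thus began far above MG and ended below them (interaction -4.68, SE 0.187, adjusted p = 2.57e-09).

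Gpr65, a receptor that senses protons, changed in MG. It was at 102.9, 118.6 and 92.17 CPM in untreated sdCAMs and at 120.3, 110.8 and 99.63 after LPS, and these groups overlapped. In MG it rose from 7.073, 8.248 and 9.963 to 282.6, 258 and 328 CPM, past the sdCAM level (interaction -5.03, SE 0.225, adjusted p = 3.93e-09). Ms4a6c, a four-span membrane protein of myeloid cells, rose in both, from 431.3, 479.2 and 468.6 to 1547, 1377 and 1529 CPM in sdCAMs and from 29.77, 28.19 and 25.32 to 973.4, 825.6 and 885.2 in MG. Its levels stayed higher in sdCAMs, although the MG fold was larger (interaction -3.32, SE 0.141, adjusted p = 2.57e-09).

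The other genes of this set fell in sdCAMs and passed no call in MG. Gatm, an enzyme of creatine synthesis, fell in sdCAMs by 2.46 (log2) against a value of 0.70 in MG. Fcgrt, the neonatal Fc receptor that recycles IgG, fell from between 1300 and 1429 CPM to between 135.3 and 168.8 in sdCAMs, close to the 121.8 to 141.4 CPM of MG after LPS. Hgsnat, a lysosomal enzyme of heparan sulfate breakdown, and Stab1, the scavenger receptor stabilin, fell in sdCAMs by 2.78 and 2.89 (log2) against values of 0.70 and 0.19 in MG. Fcrl2, an Fc receptor-like gene listed here among MG markers, was as high in untreated sdCAMs (4599, 4875 and 4780 CPM) as in untreated MG (4139, 4469 and 4760). After LPS it was at 338.5, 466.3 and 436.2 CPM in sdCAMs and at 2872, 2580 and 2426 in MG, so that ranges that overlapped at rest were apart after LPS (interaction -2.76, SE 0.158, adjusted p = 6.01e-08).

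In 39 genes LPS changes of both cell types were called with opposite signs. Of the 20 that fell in sdCAMs and rose in MG, all 20 were higher in sdCAMs at rest and 11 were higher there after LPS. Ahr, the aryl hydrocarbon receptor, a ligand-activated transcription factor, fell from 136.9, 76.06 and 110.9 to 30.92, 23.58 and 35.65 CPM in sdCAMs. In MG it rose from 0.1056, 0.5438 and 0 to 23.45, 28.87 and 32.78 CPM, so that the cell types met at one level (interaction -8.66, SE 0.581, adjusted p = 2.17e-07). Dab2, an endocytic adaptor, fell from 4294, 3997 and 3867 to 1167, 973.7 and 1335 CPM in sdCAMs and rose from 33.78, 19.94 and 17.82 to 210.5, 209.7 and 349.2 in MG, but stayed several-fold higher in sdCAMs (interaction -5.23, SE 0.332, adjusted p = 1.96e-07). Hip1, an adaptor of clathrin coats, Kcna3, a potassium channel, and the heparan sulfate-cleaving Hpse had interactions of -5.44, -6.72 and -5.51. Hpse ended at 1.377 to 2.004 CPM in MG, a low level. Kcna3 was also low, at 0.4217 to 1.253 CPM in sdCAMs after LPS and 0.4222 to 1.289 in untreated MG. Mndal fell in sdCAMs but had at most 3 counts in any MG library, so that no fold is given for MG.

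Of the 19 genes that rose in sdCAMs and fell in MG, 5 were higher in sdCAMs at rest and 18 after LPS. Cnn2, the actin-binding calponin, rose from 12.44, 24.16 and 30.81 to 185.4, 249.5 and 207.6 CPM in sdCAMs and fell from 23.75, 33.45 and 24.26 to 15.91, 12.66 and 11.2 in MG. Before LPS the cell types overlapped, and after it they were apart (interaction 4.29, SE 0.389, adjusted p = 2.97e-06). Calhm6, a channel-forming protein, and Palld, an actin scaffold, had interactions of 4.09 and 4.55, Scarf1, a scavenger receptor, one of 4.39 and the ciliary gene Intu one of 4.51. Scarf1 and Palld were under 5 CPM in all MG libraries. Intu was at 0.574 to 0.9108 CPM in MG after LPS and at 0.2416 CPM in the untreated sdCAMs of mouse 5f. Pdcd1, which encodes the checkpoint receptor PD-1, had 0 counts in the 3 untreated sdCAM libraries and 0.9311 to 2.962 CPM after LPS, at least 6.01-fold higher when set against 3 counts per library, and fell from between 8.339 and 18.05 to between 0.984 and 2.459 CPM in MG.

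**Figure D4:**
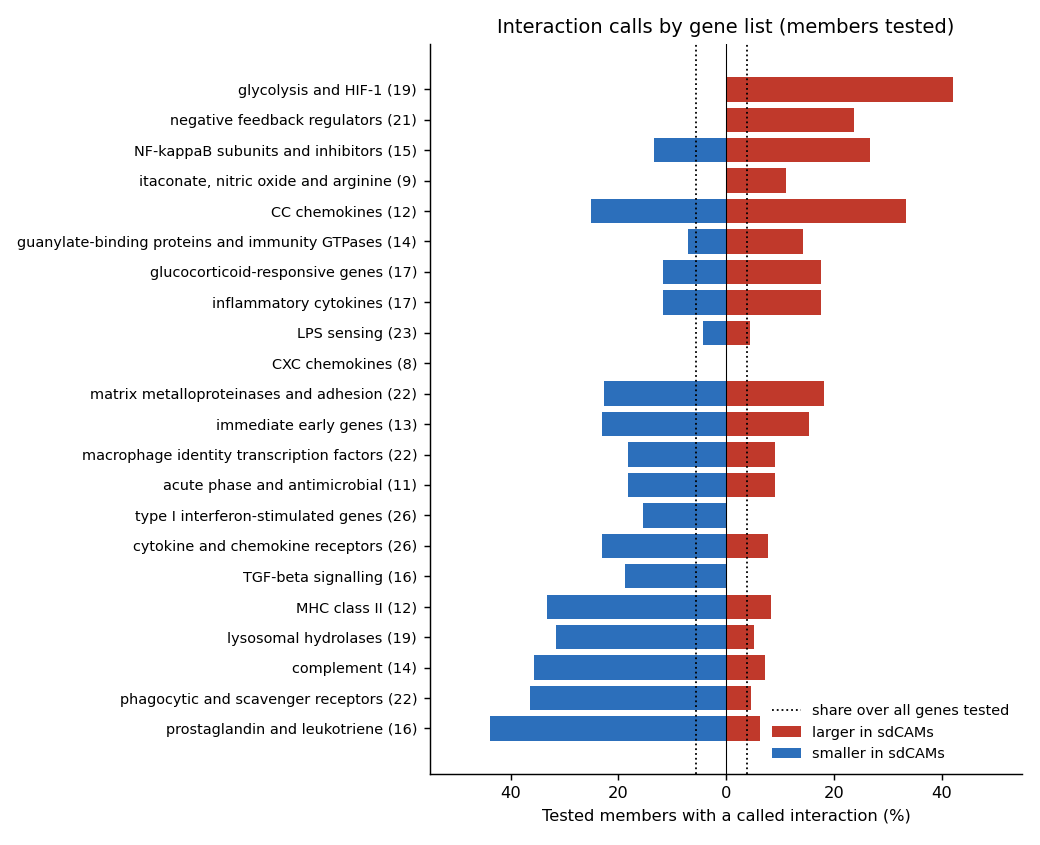
Share of the tested members of 22 gene lists with a called interaction, those with a higher LPS change in sdCAMs to the right (red) and those with a lower one to the left (blue), with the number tested in parentheses. Dotted lines mark the shares over all genes tested, 3.79% and 5.57%. Glycolysis and HIF-1 genes lie furthest to the right, and prostaglandin and leukotriene genes furthest to the left.

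Gene lists of the LPS response are described by the number of members called and by their median, beside all genes tested, whose median interaction was -0.06. Over all genes tested, 3.79% had a higher and 5.57% a lower change in sdCAMs. After LPS 11.8% rose and 14.2% fell in sdCAMs, and 8.82% rose and 7.36% fell in MG. At such shares, 0 calls in a direction says little in lists of this size. Of 23 receptors and adaptors of LPS sensing, 1 had a higher and 1 a lower change in sdCAMs (8.7% called against 9.35% of all genes), and 12 of 23 had an unadjusted p under 0.05 against 3157 of all 12305. Tlr2, the receptor for bacterial lipoproteins, rose from between 387.2 and 454.5 to between 941.2 and 1231 CPM in sdCAMs and from between 249.4 and 282.5 to between 1493 and 2631 in MG (interaction -1.62, SE 0.236, adjusted p = 0.000271). Irak3, a pseudokinase that holds back the receptor complex, rose in both but more in sdCAMs (interaction 2.06, SE 0.329, adjusted p = 0.000593).

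Of 15 genes of NF-κB subunits and their inhibitors, 4 had a higher and 2 a lower change in sdCAMs, with a median interaction of 0.46. The subunit gene Relb rose in sdCAMs by 1.98 (log2) against a value of 0.78 in MG. The inhibitor genes Nfkbib and Nfkbie rose in sdCAMs by 2.14 and 1.12 against values of 0.81 and -0.32 in MG. Nfkb1, which encodes p50, fell in MG by 1.48 (log2) and had a value of -0.40 in sdCAMs. Bcl3 and Nfkbiz, nuclear regulators of the family, rose in both cell types and more so in MG, with interactions of -2.33 and -1.61, and Nfkbiz lost the call under 13 of 28 settings.

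Among the inhibitors that end the response, the called interactions had one direction. Of 21 negative feedback regulators, 5 had a higher change in sdCAMs and 0 a lower one, 23.8% called against 9.35% of all genes. In sdCAMs 17 rose and in MG 13, and the median interaction was 1.03 (1.19 with genes under 3 counts set at that floor). Tnfaip3, which encodes the ubiquitin-editing enzyme A20, rose from 28.59, 33.29 and 37.93 to 645, 793.7 and 684.5 CPM in sdCAMs and from 83.18, 78.68 and 79.7 to 338.7, 249.8 and 300.2 in MG. It thus began lower in sdCAMs and ended higher (interaction 2.53, SE 0.19, adjusted p = 5.47e-07). Socs3, the inhibitor of gp130 signalling, had the same pattern, rising from between 8.184 and 9.123 to between 720.8 and 860.6 CPM in sdCAMs and from between 23.75 and 39.5 to between 418.8 and 461.7 in MG. Tnip1, a partner of A20, rose from 22.76, 22.93 and 20.78 to 148.4, 170.2 and 160.8 CPM in sdCAMs and went from 23.65, 22.03 and 18.29 to 30.42, 24.68 and 29.84 in MG (interaction 2.44, SE 0.226, adjusted p = 3.51e-06). The phosphatase gene Dusp2 was the fifth, after Irak3, with an interaction of 3.30.

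Promoter sequences are shown for 2 of these inhibitors and for 2 interferon-stimulated genes described next, because the called interactions of each list had a single sign. They are the 250 bases before the first start that RefSeq lists (build GRCm38.p6), 5′ to 3′ on the strand of the gene. Capitals in the first pair mark an NF-κB motif (GGGANTTCC on either strand, overlapping matches joined), at chr10:19015411-19015660 (minus strand) for Tnfaip3 and chr11:54962941-54963190 (minus strand) for Tnip1. Capitals in the second pair mark the core of the interferon-stimulated response element (GAAANNGAA on either strand, overlapping matches joined), at chr8:71537473-71537722 (minus strand) for Bst2 and chr10:128270248-128270497 (plus strand) for Stat2.
Tnfaip3: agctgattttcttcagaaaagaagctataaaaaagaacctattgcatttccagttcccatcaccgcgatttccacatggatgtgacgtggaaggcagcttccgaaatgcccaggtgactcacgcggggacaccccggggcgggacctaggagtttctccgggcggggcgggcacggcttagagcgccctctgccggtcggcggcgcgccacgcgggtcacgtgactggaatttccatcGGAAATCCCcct
Tnip1: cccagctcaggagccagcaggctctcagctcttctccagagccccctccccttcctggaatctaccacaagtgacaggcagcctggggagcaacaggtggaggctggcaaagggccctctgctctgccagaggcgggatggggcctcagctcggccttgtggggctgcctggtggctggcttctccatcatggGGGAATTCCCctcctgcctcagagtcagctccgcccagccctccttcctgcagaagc
Bst2: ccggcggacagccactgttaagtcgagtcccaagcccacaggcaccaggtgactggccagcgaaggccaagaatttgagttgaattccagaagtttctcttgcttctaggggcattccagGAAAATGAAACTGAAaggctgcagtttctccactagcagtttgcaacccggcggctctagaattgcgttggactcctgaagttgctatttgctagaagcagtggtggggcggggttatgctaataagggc
Stat2: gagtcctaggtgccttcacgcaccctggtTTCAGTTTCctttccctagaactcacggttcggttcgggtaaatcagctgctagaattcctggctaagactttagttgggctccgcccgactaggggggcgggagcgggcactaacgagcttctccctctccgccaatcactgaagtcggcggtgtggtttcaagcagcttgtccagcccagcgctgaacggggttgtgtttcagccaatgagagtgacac

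Such matches describe letters and are not binding sites. The promoters shown were ones with a match. Those of Dusp2 and Oasl2, called in the same lists, had no match of their list's motif. The NF-κB motif stood in 1.95% of the promoters of tested genes with a sequence (9658 of 12305), in 15.8% of the 19 matched feedback regulators, in 1.79% of the 390 matched genes with a higher change in sdCAMs and in 2.29% of the 523 with a lower one. The interferon motif stood in 6.49%, in 55.6% of 18 matched interferon-stimulated genes, and in 6.41% and 7.27% of the higher and lower genes. For the glycolysis and HIF-1 list, described below, the core of the hypoxia response element (ACGTG) was counted. It stood in 22.1% of the promoters of tested genes and in 52.6% of the 19 of that list. Among the higher and lower genes it stood in 19.7% and 22.4%. The 2 directions of the interaction were therefore close to all tested genes in these letters.

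For interferon-stimulated genes the called interactions were negative. Of 26 members, 0 had a higher and 4 a lower change in sdCAMs, 15.4% called against 9.35% of all genes. In sdCAMs 16 rose and in MG 19, and the median interaction was -0.62. Ifi204, a DNA sensor, was at 199.2, 239.7 and 143.9 CPM in untreated sdCAMs and at 368, 327.4 and 378.6 after LPS, and rose from 16.05, 11.15 and 8.088 to 226, 357.9 and 248.9 CPM in MG (interaction -3.67, SE 0.334, adjusted p = 3.36e-06). Ifi204 and Mndal belong to a family of near-identical genes, so that the division of reads among them is uncertain. Bst2, tetherin, which holds virions at the membrane, lay at 530.8, 721.7 and 533.8 CPM in untreated sdCAMs and at 726.9, 679.7 and 790.8 after LPS, whereas it rose from between 75.48 and 89.73 to between 235.6 and 248.8 CPM in MG. The sdCAM groups of Bst2 overlapped and stayed above both MG groups. Oasl2 and the interferon signal transducer Stat2 rose in both cell types with interactions of -2.03 and -1.04, and Stat2 was not called under 10 of 28 other settings. Guanylate-binding proteins divided, with Gbp5 and Gbp9 higher (1.99 and 1.24) and Gbp7 lower (-1.16) of 14, and Gbp5 and Gbp9 each lost the call under 14 of 28 settings, Gbp9 also with the mouse as a block (1.21).

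Cytokines differed in which cell type carried the rise. Of 17 members tested, 3 had a higher and 2 a lower change in sdCAMs. Il6 rose from 1.794, 2.466 and 0 to 29.24, 22.78 and 31.13 CPM in sdCAMs and was at 18.37, 19.58 and 17 before and 30.18, 16.76 and 32.04 after LPS in MG, so that both cell types ended at one level (interaction 3.75, SE 0.77, adjusted p = 0.00427). Il1a likewise rose from between 5.269 and 15.66 to between 84.06 and 98.77 CPM in sdCAMs, and was at 124.8 to 169.8 before and 188.9 to 296.7 after LPS in MG. Ebi3, a subunit shared by IL-27 and IL-35, rose in sdCAMs by 2.06 (log2) against a value of -0.61 in MG. Tnf rose in both, from 13.79, 11.83 and 9.664 to 57.77, 69.38 and 61.05 CPM in sdCAMs and from 7.811, 2.538 and 4.923 to 169.4, 128.2 and 99.99 in MG, with the MG above all sdCAM libraries after LPS (interaction -2.30, SE 0.427, adjusted p = 0.00206). The lower change of Osm, a cytokine of the IL-6 family, was lost under 12 of 28 settings.

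Of 12 CC chemokines, 4 had a higher and 3 a lower change in sdCAMs, so that 58.3% were called. The ligands of Ccr2 were the lower ones. Ccl12 was at 432, 719.3 and 486.5 CPM in untreated sdCAMs and at 807.8, 641.8 and 669.2 after LPS, which overlap, and rose from 108.5, 62.72 and 92.95 to 2735, 1875 and 2352 CPM in MG (interaction -4.35, SE 0.31, adjusted p = 4.54e-07). Ccl2 rose from between 56.95 and 80.75 to between 99.11 and 186.2 CPM in sdCAMs and from between 4.079 and 8.656 to between 187.5 and 244 in MG, above every sdCAM library. Ccl7 rose in both but stayed higher in sdCAMs, at 582.1, 252 and 527.8 CPM against 47.48, 21.95 and 38.2 in MG (interaction -5.56, SE 0.635, adjusted p = 3.52e-05), and lost the call under the 2 voom fits.

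The chemokines with a higher change in sdCAMs included Ccl9, a ligand of Ccr1, which rose from 117.3, 145.8 and 147.6 to 1535, 1568 and 1548 CPM in sdCAMs and was at 283.1, 209.2 and 299 before and 440.1, 282.1 and 502.2 after LPS in MG (interaction 2.87, SE 0.259, adjusted p = 2.76e-06). Ccl6 fell in MG by 1.58 (log2) and Ccl24, an eosinophil chemokine, fell in both and more in MG. Of 8 CXC chemokines, 0 had a called interaction in edgeR and 1 had an unadjusted p under 0.05, although 7 rose in sdCAMs and 5 in MG. Cxcl16 had an interaction of -0.86 (adjusted p = 0.0102), inside the fold limit. It was not called by DESeq2 and was called without the fold limit, without MG replicate 2 after LPS or without mouse V2m (-1.08). Cxcl10, the ligand of Cxcr3, rose to 159.3, 131.8 and 205.1 CPM in sdCAMs and to 143.3, 88.44 and 49.12 in MG (interaction -1.28, SE 0.881, adjusted p = 0.42).

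Of 26 cytokine and chemokine receptors, 2 had a higher and 6 a lower change in sdCAMs. Ccr1 was at 649.2, 697 and 643.9 CPM in untreated sdCAMs and at 513.6, 447.1 and 454.4 after LPS, a change inside the fold limit, and rose from 0.4222, 0.09064 and 0 to 6.478, 6.376 and 6.427 CPM in MG, so that sdCAMs stayed far above MG. Il1r1, the signalling receptor for IL-1, had 1 count in all in the 3 untreated sdCAM libraries and 20.8, 27.23 and 48.82 CPM after LPS, and rose from between 1.45 and 3.906 to between 5.412 and 12.39 CPM in MG (interaction 7.55, SE 1.02, adjusted p = 0.000134). Csf1r, on which both cells depend, fell in sdCAMs from between 9091 and 10300 to between 2909 and 3328 CPM and was between 11920 and 12910 before and 8143 and 9009 after LPS in MG (interaction -1.09, SE 0.112, adjusted p = 9.37e-06). Cx3cr1, the fractalkine receptor, fell in both, to between 155.4 and 231.8 CPM in sdCAMs and between 2574 and 2918 in MG. Tnfrsf1b rose in sdCAMs by 1.18, and Ifngr1 had values of -0.99 in sdCAMs and 0.38 in MG.

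The called interactions of glycolysis genes and of the hypoxia-inducible factor HIF-1 also had one direction. Of 19 members, 8 had a higher change in sdCAMs and 0 a lower one, 42.1% against 3.79% of all genes in that direction, and the median interaction was 0.92. Hif1a, the oxygen-regulated subunit, rose from 125, 123.2 and 131.7 to 650.2, 730.8 and 596 CPM in sdCAMs and went from 211.8, 215.8 and 242.7 to 239.7, 264.3 and 254.5 in MG (interaction 2.20, SE 0.145, adjusted p = 1.96e-07). Pfkfb3, which makes the activator of phosphofructokinase, rose in both, from between 24.9 and 42.71 to between 533.3 and 611.1 CPM in sdCAMs and from between 117 and 150.1 to between 622.5 and 653.2 in MG, so that the larger fold in sdCAMs narrowed an initial gap. The phosphofructokinase gene Pfkl, the pyruvate kinase gene Pkm and the lactate exporter gene Slc16a3 had interactions of 1.79, 1.43 and 2.41. For the hexokinase gene Hk3 the interaction of 1.56 came from a fall in MG, from between 92.01 and 103.3 to between 20.77 and 26.49 CPM.

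In the lists of lysosomal, scavenging and complement genes, more of the called interactions were negative than positive, although most members had none. Of 19 lysosomal hydrolases, 1 had a higher and 6 a lower change, and 9 fell in sdCAMs and 4 in MG (median interaction -0.57). Ctsc, cathepsin C, which activates serine proteases, fell from 8775, 7919 and 8182 to 2389, 1860 and 2447 CPM in sdCAMs and rose from 1428, 1572 and 1375 to 4323, 3141 and 4722 in MG, so that MG overtook sdCAMs (interaction -3.37, SE 0.197, adjusted p = 7.12e-08). Hexa, which degrades gangliosides, fell in both, from between 2040 and 2593 to between 224.1 and 240.5 CPM in sdCAMs and from between 1329 and 1403 to between 401.2 and 432.2 in MG. Lipa, Gusb and Man2b1 had interactions of -1.64, -1.11 and -1.49, whereas that of Ctsz was 1.08.

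Of 22 phagocytic and scavenger receptors, 1 had a higher and 8 a lower change in sdCAMs (median -1.02, or -0.94 with genes under 3 counts set at that floor). Besides Gas6 and Stab1, Siglec1, the sialic acid receptor of perivascular macrophages, rose from 244.4, 258.8 and 349.2 to 598.1, 555.3 and 675.5 CPM in sdCAMs and from 1.267, 0.5438 and 0.4688 to 44.77, 43.26 and 46.37 in MG, which stayed below sdCAMs (interaction -4.76, SE 0.309, adjusted p = 1.96e-07). Msr1, the class A scavenger receptor, rose from 561.9, 519.3 and 612.6 to 4783, 4151 and 4483 CPM in sdCAMs and from 6.861, 2.719 and 1.172 to 1734, 1141 and 2059 in MG. Clec7a, the β-glucan receptor dectin-1, fell from between 125.7 and 196 to between 3.059 and 6.185 CPM in sdCAMs and was between 28.01 and 40.85 before and 13.3 and 30.48 after LPS in MG. Pros1, the other bridging ligand beside Gas6, fell in sdCAMs by 2.04 against a value of -0.76 in MG.

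Of 14 complement genes, 1 had a higher and 5 a lower change in sdCAMs. C4b, a component of the classical pathway, fell from 1226, 996.2 and 1110 to 389.9, 427.5 and 446.7 CPM in sdCAMs and rose from 4.75, 3.807 and 1.055 to 25.99, 38.8 and 39.67 in MG (interaction -4.80, SE 0.374, adjusted p = 9.49e-07). The anaphylatoxin receptor C3ar1 rose in MG by 1.38 (log2) against a value of -0.41 in sdCAMs, and C5ar1 rose in both by 1.40 in sdCAMs and 2.92 in MG. C1qa was at 5562 and 2997 CPM on average in sdCAMs before and after LPS and at 4977 and 6551 in MG (interaction -1.29, SE 0.125, adjusted p = 5.52e-06), with neither change past the fold limit. Itgam, a subunit of complement receptor 3, rose from 184.5, 164.2 and 235.8 to 1196, 1053 and 1172 CPM in sdCAMs and was at 516.2 to 553.5 before and 592.8 to 720.2 after LPS in MG.

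Of 16 genes of the prostaglandin and leukotriene pathway, 1 had a higher and 7 a lower change in sdCAMs, 50% called in all. Ltc4s, the synthase of leukotriene C4, was at equal levels at rest, between 148.6 and 162.7 CPM in sdCAMs and between 141.8 and 159.3 in MG. After LPS it was at 3.514, 3.645 and 5.321 CPM in sdCAMs and at 60.84, 63.94 and 49.95 in MG (interaction -3.83, SE 0.233, adjusted p = 1.16e-07). Hpgd, which inactivates prostaglandins, fell from between 1166 and 1456 to between 23.33 and 29.51 CPM in sdCAMs and from between 875 and 888 to between 73.82 and 115.7 in MG. Alox5, the 5-lipoxygenase, fell in sdCAMs by 1.85 (log2) and rose in MG by 1.03. Ptgs1, Hpgds and Tbxas1, which make prostanoids, had interactions of -1.33, -1.30 and -1.38.

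Transcription factors of macrophage identity were called in 6 of 22 cases, 2 higher and 4 lower. Mef2c, a factor of microglial maturation, lay at equal levels at rest, 755.3 to 831.1 CPM in sdCAMs and 779.7 to 842.4 in MG, and fell to between 77.95 and 103 in sdCAMs and between 320.2 and 386.8 in MG (interaction -1.92, SE 0.157, adjusted p = 1.15e-06). Runx1 rose in MG by 1.15 (log2) against a value of -0.30 in sdCAMs, and Klf4 rose in both, by 2.48 in sdCAMs and 6.51 in MG. Of 16 TGF-β signalling genes, 0 had a higher and 3 a lower change in sdCAMs, 18.8% called against 9.35% of all genes. Among them the receptor gene Tgfbr2 fell in sdCAMs from between 994.2 and 1144 to between 152.6 and 185.4 CPM and had a value of -0.98 (log2) in MG, and Tgfbi, a secreted matrix protein, fell from between 1425 and 1529 to between 363.4 and 455 in sdCAMs and rose from between 56.56 and 71.68 to between 156.8 and 246.3 in MG.

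Of 12 genes of MHC class II and costimulation, 1 had a higher and 4 a lower change. The peptide-loading genes H2-DMa and H2-DMb1 fell in sdCAMs by 2.66 and 2.47 (log2) against values of -0.96 and -0.91 in MG. Cd74, the invariant chain, was at 3372, 1898 and 1250 CPM before and 2478, 3184 and 1987 after LPS in sdCAMs, which overlap, and rose from 97.33, 36.26 and 36.1 to 422.6, 352.7 and 574.6 CPM in MG. Ciita, the transactivator of these genes, fell from between 1.812 and 10.23 CPM to 1 count in 3 libraries in sdCAMs.

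Of 22 matrix metalloproteinase and adhesion genes, 4 had a higher and 5 a lower change. Mmp14, a membrane-bound protease, rose from 37.67, 49.07 and 25.73 to 1500, 1744 and 1317 CPM in sdCAMs and from 73.47, 51.94 and 54.86 to 255.2, 205.1 and 251 in MG (interaction 3.36, SE 0.281, adjusted p = 1.48e-06). Vcam1, an adhesion molecule, rose in MG from between 16.68 and 18.79 to between 122.7 and 240.8 CPM against 661.3 to 820.5 before and 1128 to 1248 after LPS in sdCAMs. Of 9 genes of itaconate, nitric oxide and arginine metabolism, all 9 rose in sdCAMs and 8 in MG, and 1 had a called interaction (median 0.55, or -0.56 with genes under 3 counts set at that floor, so that its sign rests on them). This was Sod2, the mitochondrial superoxide dismutase, which rose from 55.83, 57.69 and 46.03 to 2767, 2909 and 2685 CPM in sdCAMs and from 37.26, 38.16 and 32.12 to 295.2, 202.4 and 320.6 in MG.

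Acute phase, immediate early and glucocorticoid-responsive genes were divided. Of 11 acute phase genes 10 rose in sdCAMs and 7 in MG. The change was higher in sdCAMs for 1 (Hp) and lower for 2, Cp and Wfdc17, with interactions of -2.57 and -2.15. The median interaction was 3.81, or 2.39 with genes under 3 counts set at that floor. Hp, haptoglobin, which binds free haemoglobin, had 0 counts in untreated sdCAMs and 149.8, 369 and 197.1 CPM after LPS, at least 670-fold higher against 3 counts per library, and was at 0.3167, 0 and 0 before and 6.068, 4.008 and 5.234 after LPS in MG. The interaction of Hp (8.66) was lost under 17 of 28 settings, the mouse as a block (8.63) included, Hp being also among the monocyte markers above, and that of Cp, ceruloplasmin, under 14. Of 13 immediate early genes, 2 had a higher (Junb and Atf3) and 3 a lower change (Ier2, Ier3 and Fos), and Atf3 lost the call under 11 of 28 settings. Ier3 rose from between 22.93 and 27.42 to between 50.24 and 75.95 CPM in sdCAMs and from between 3.263 and 7.97 to between 84.29 and 112.7 in MG. Of 17 glucocorticoid-responsive genes 15 rose in sdCAMs and 13 in MG, with 3 higher (Mt1, Sgk1 and Cdkn1a) and 2 lower changes. Klf9, a direct target of the glucocorticoid receptor, rose from between 6.523 and 11.21 to between 64.37 and 82.79 CPM in sdCAMs and from between 0.2719 and 2.227 to between 65.01 and 111.8 in MG, and Zbtb16 went from 0 counts to 66.5, 78.88 and 33.05 CPM in MG, at least 190-fold higher against 3 counts per library. The interaction of Zbtb16 (-7.00) was lost under 15 of 28 settings.

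The marker lists also differed. Of 12 MG markers 10 fell in each cell type, and 3 (Fcrl2, Cx3cr1 and P2ry13) had a lower change in sdCAMs. Of 12 border macrophage markers 7 fell in sdCAMs and 1 in MG, and 4 (Stab1, Siglec1, Clec4n and Mrc1) had a lower change in sdCAMs. Mrc1 fell in both, and its interaction of -1.06 was lost under 11 of 28 settings. The product of Mrc1 was used in the sort.

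The same interaction was fitted in WT mice together with the Ccr2-/- mice, over 24 libraries. The counts of each genotype were deposited separately. The study's methods applied ComBat-seq batch correction to the WT and Ccr2-/- data, whereas the fit here had no batch term. Batch and genotype may therefore coincide and cannot be told apart here. In the fit of 24 libraries the interaction was called for 462 genes in Ccr2-/- and 1784 in WT mice. Of these, 210 were called in both, 45.5% of the first and 11.8% of the second, all 210 with the same sign. The difference between the genotypes was called for 409 of 13465 genes (3.04%), of which 100 had a higher and 309 a lower interaction in Ccr2-/- mice. The median difference over all genes was 0.197 (log2) in this fit, -0.0333 with DESeq2 and 0.074 with group weights. The untreated WT sdCAM libraries held fewer counts. Ccr2 counts of 131, 42 and 66 made 43, 16.8 and 34.2 plain CPM there. In untreated Ccr2-/- sdCAMs 27, 20 and 46 counts made 3.02, 2.46 and 5.59. Depth thus differed with genotype in this group, and its part in the differences was not tested. The WT sdCAM libraries were also more variable, with mean precision weights of 0.405 untreated and 0.649 after LPS against 0.839 and 0.939 in Ccr2-/- mice, and the count was 294 (30 higher and 264 lower) when the groups were weighted. It was 816 with DESeq2. Leaving out 1 library gave 956 without WT untreated sdCAM replicate 9, 758 without WT sdCAM replicate 1 after LPS, 262 without WT untreated MG replicate 9, 267 without Ccr2-/- untreated MG replicate 3 and 266 without Ccr2-/- MG replicate 1 after LPS.

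**Figure D5:**
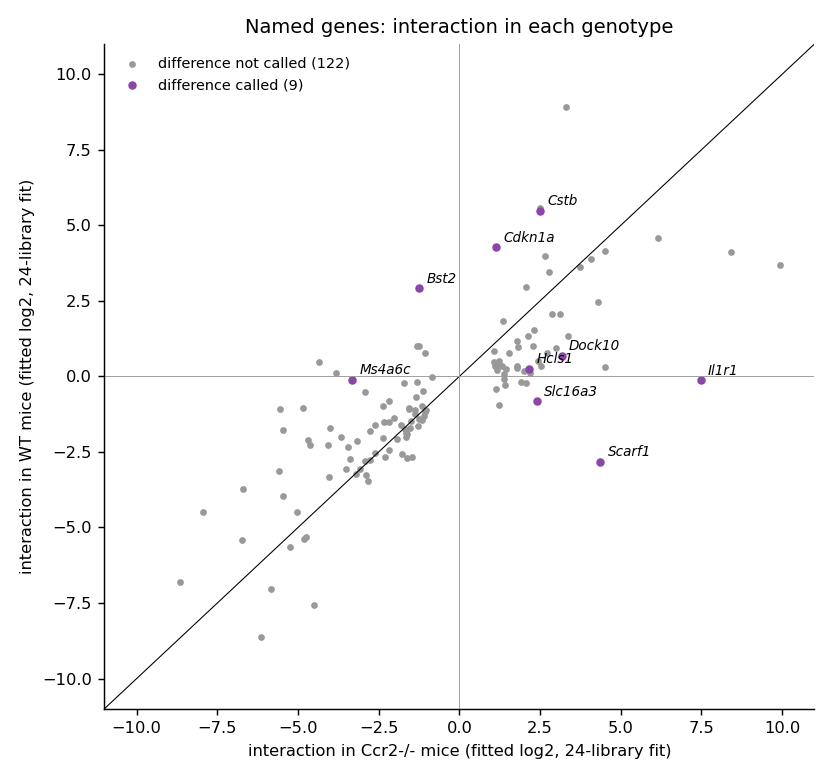
Fitted log2 interaction in Ccr2-/- (horizontal) and WT mice (vertical) for 131 genes named by rule, from the fit of 24 libraries. The line marks equal interaction, the 9 purple points are genes whose difference between genotypes was called, and the 122 grey points are the others.

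Of the genes named here other than Ccr2, the difference between genotypes was called for Bst2, Cdkn1a, Cstb, Dock10, Hcls1, Il1r1, Ms4a6c, Scarf1 and Slc16a3, and with group weights for Bst2, Cstb, Dock10, Hcls1 and Ms4a6c of these. Cx3cr1 gained a called difference with group weights (-1.49, adjusted p = 0.0238 in limma, against -1.39 and 0.126 without them). Bst2 had opposite signs, with an interaction of -1.24 in Ccr2-/- and 2.92 in WT mice (difference -4.15, SE 0.699, adjusted p = 0.00133). Cstb had a positive interaction in both, 2.50 and 5.48 (difference -2.98, SE 0.591, adjusted p = 0.00461). Ms4a6c had -3.33 in Ccr2-/- and -0.11 in WT mice (difference -3.21, SE 0.583, adjusted p = 0.00221), and Dock10 3.17 and 0.68 (difference 2.49, SE 0.555, adjusted p = 0.0114). For other genes the difference was not called. Values were small for some, at -0.01 (SE 0.404) for Stab1, 0.40 (SE 0.604) for Dab2, -0.54 (SE 0.575) for Gpr65 and 0.54 (SE 0.98) for Siglec1. They were large for others, at 2.10 (SE 0.719) for Hif1a, 2.20 (SE 0.803) for Tnfaip3, -3.93 (SE 1.25) for Ltc4s and -4.85 (SE 1.67) for Ccl12. The WT interactions of these last genes were 0.10, 0.33, 0.10 and 0.49, none called. A difference that was not called is therefore not evidence of equal interactions.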

How the data were processed

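Per the labels and the study's methods, the authors amplified the cDNA of sorted cells (SMARTer), prepared it for sequencing with Nextera XT, aligned the single reads with STAR 2.7.11a and counted them with featureCounts 2.0.8. The deposited counts are whole numbers per gene symbol with no normalization and no molecular identifiers, so that the floors of 3 counts cover counting error only. Strand setting and build (named ambiguously) are open, so overlapping genes are uncertain. Library titles named the other cell type for every LPS library used here (V1m, V2m and V4f) and for none of the untreated ones. Library names were used. By these names, Mrc1 after LPS lay between 1410 and 1550 CPM in sdCAMs and between 3.2 and 4.96 in MG.

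Counts were fitted with edgeR 4.0.16 in R 4.3.3 (filterByExpr, TMM, quasi-likelihood, Benjamini-Hochberg adjustment, two-sided), with 8 residual degrees of freedom. Alternatives used DESeq2 1.42.0 and limma 3.58.1. The fit was tested on simulated data. Members and gene lists were chosen with earlier results of these data known. Named genes were Ccr2, the 8 calls of smallest p per direction with at least 10 CPM in a group, the 6 largest opposite changes per orientation, and up to 6 members per list, without predicted genes. Some genes that this rule would name are not reported here. All columns used matched a library.

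Libraries pair by mouse, since each mouse gave both cell types. Deviations from the group means correlated at 0.00832 to 0.134 within mice and -0.0887 to 0.0307 across them. Replicates of a group differed by more than sampling noise. Nothing says whether mice shared litters.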

Additional observations from a re-analysis of the deposited data

Results flagged for a closer look

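The effect of LPS differed between the cell types, by the interaction test, for 1151 genes, and in 39 of these the changes of both cell types were called with opposite signs. Among the named genes with opposite signs, the interactions were 10.21 for Pdcd1, 4.55 for Palld, 4.51 for Intu, 4.39 for Scarf1, 4.29 for Cnn2 and 4.09 for Calhm6 (higher in sdCAMs), and -8.66 for Ahr, -6.72 for Kcna3, -5.51 for Hpse, -5.44 for Hip1 and -5.23 for Dab2 (lower in sdCAMs), all on the log2 scale. The value of Pdcd1 rests on untreated sdCAM libraries with 0 counts and is no bound. Those of Ahr, Kcna3, Hpse, Intu, Scarf1 and Palld rest in part on a group with a mean of at most 0.7954 CPM. A difference of the interaction between genotypes was called for 409 genes, with batch and depth not separated from genotype.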

How the results depend on the processing

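The interaction count stayed between 892 and 1595 over 28 other settings of the Ccr2-/- fit, with 957 to 1185 when 1 library and 928 to 1022 when 1 mouse was left out, and 873 of 892 calls of the 18-library fit were among the 1151. In the 24-library fit with WT mice the Ccr2-/- interaction was called for only 462 genes, and for 86 of the 128 named ones. With the mouse as a block (paired fit) it was 1044, of which 986 were among the 1151, and the genotype difference was called for 314 genes. Without the fold limit, 4994 genes changed in sdCAMs and 3562 in MG. The genotype difference was called for 816 genes with DESeq2 and for 262 to 956 without 1 library, of which 956 and 758 came from leaving out single WT sdCAM libraries, and the cause was not tested. Of 128 named genes with a called interaction, 97 were called under all 28 alternatives and 31 were not called under at least 1, and 0 reversed their sign. The block ended the call of Cd80 (1.07), Gbp9 (1.21) and Hp (8.63) and of no other named gene, whereas the mouse as a random effect (voom) ended 13 calls, those of Ccl7, Ccl24, Cd74, Cdkn1a, Cp, Fn1, Fos, Gbp5, Hp, Mndal, Mrc1, Wfdc17 and Zbtb16. Calls of Ciita, Oasl2, Nfkb1, Intu, Ctsz, Mt1, Junb and Dusp2 were also lost under at least 1 setting. Opposite changes numbered 30 to 47 when 1 library or mouse was left out, 58 without a low-count filter and 145 without the fold limit. Group weights and the library omissions in the genotype fit were chosen after seeing the data. The floor of 3 counts per library was a chosen limit and corresponded to 0.265 to 0.388 CPM as a group mean. Lower levels rest on few counts.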
